A study of Homo sapiens with 7 samples.

Results

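WNT signalling was examined through 10 genes in HCT116 cells treated with bafilomycin A1: the effector CTNNB1, the DNA-binding factors TCF7, TCF7L2 and LEF1, the target genes AXIN2, ASCL2 and NKD1, the receptor LGR5 and the ubiquitin ligases RNF43 and ZNRF3. Spots were assigned to these members by gene symbol, as every non-control spot of the array carrying that gene name, without regard to signal. The choice of the genes themselves was made with earlier results of these data known. The members made up 10 of 36337 gene names, 17 of 50599 probes and 35 of 58717 non-control spots on each array. HCT116 is a near-diploid human colon carcinoma line that carries activated beta-catenin, used here as a derivative expressing the histone H2B fused to GFP. Every culture analysed had received bafilomycin A1, an inhibitor of the vacuolar proton pump, at 10 nM for 30 h in medium with 10% FBS, and each of the 4 replicate cultures was hybridised to 1 single-colour array from 100 ng of total RNA. The 3 samples labelled as untreated were not analysed here, so the values describe the level and the replicate error in treated cells and contain no effect of the drug. The labels do not say whether the H2B-GFP line is a single clone. The 4 arrays lay on 1 slide.

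In the WNT pathway, a secreted WNT ligand binds a Frizzled receptor and an LRP co-receptor and stops a cytoplasmic destruction complex from marking beta-catenin for degradation. Beta-catenin then enters the nucleus and acts on target genes through TCF and LEF factors, several of whose targets encode inhibitors of the pathway. In intestinal epithelium the pathway maintains the stem cells at the base of the crypt, and in most colon cancers it is switched on by mutation.

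The measurement of each gene rested on a few 60-base probes, and probes of the same gene could differ in how they varied between arrays. Whether the stretch they read played a part in this was not tested. The probes on which the results below turn are shown as their first 30 bases, 5′ to 3′, as printed on the array, in lower case throughout because no part is singled out. Positions are those of GRCh37 as the array files give them, with the strand of the transcript.
CTNNB1 A_23_P29495 (chr3:41281749-41281808, + strand): tgatcaaaaactatttgggatatgtatggg
CTNNB1 A_33_P3421695 (chr3:41280687-41280746, + strand): atgatggaacatgagatgggtggccaccac
AXIN2 A_23_P148015 (chr17:63525389-63525448, - strand): ttttgtcttaaaggtcttgagggttgacca
AXIN2 A_24_P298027 (chr17:63554388-63554447, - strand): ttcctggagagggagaaatgcgtggatacc
ZNRF3 A_23_P427502 (chr22:29452861-29452920, + strand): actgctcacatacttatgtgctgctagtct
ZNRF3 A_24_P162373 (chr22:29449612-29449671, + strand): ctcaggaggaactcttacctggaaattggg
LEF1 A_24_P20630 (chr4:108968746-108968805, - strand): gcccaaaactgtcatcctaacgtttgtcat
ASCL2 A_32_P171061 (chr11:2289959-2290018, - strand): ctgctggagggacactgctggcaaacggag
LGR5 A_23_P98974 (chr12:71978325-71978384, + strand): acacccaagcttgatgtcaattaactctga
The first 6 sequences are pairs of probes for the same gene that differed in how they varied between arrays, and the last 3 are the only probes of the genes that gave no signal well above background. The complete probe A_23_P29495 of CTNNB1, the LEF1 probe and the RNF43 probe hold a stop codon in each of the 3 reading frames, so these probes cannot lie wholly within coding sequence. Exon and UTR boundaries for this build were not used here.

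Transcripts of 7 of the 10 genes were detected in every treated culture, and those of LEF1, ASCL2 and LGR5 in none. CTNNB1, TCF7, TCF7L2, AXIN2, NKD1, RNF43 and ZNRF3 had at least 1 probe that the scanner software flagged as well above background on all 4 arrays. By the same rule 52.5% of all gene names and 70.9% of the 16650 names that are protein-coding RefSeq symbols were detected, so the share of 70.0% among these genes lies close to the protein-coding background. At the level of probes, 14 of 17 were well above background on all 4 arrays, against 48.7% of all probes. The number of detected genes stayed at 7 under every other detection rule tried and with any array left out. In RNA from a whole culture, a low signal from few expressing cells and from little RNA in each cell cannot be told apart.

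**Figure D1:**
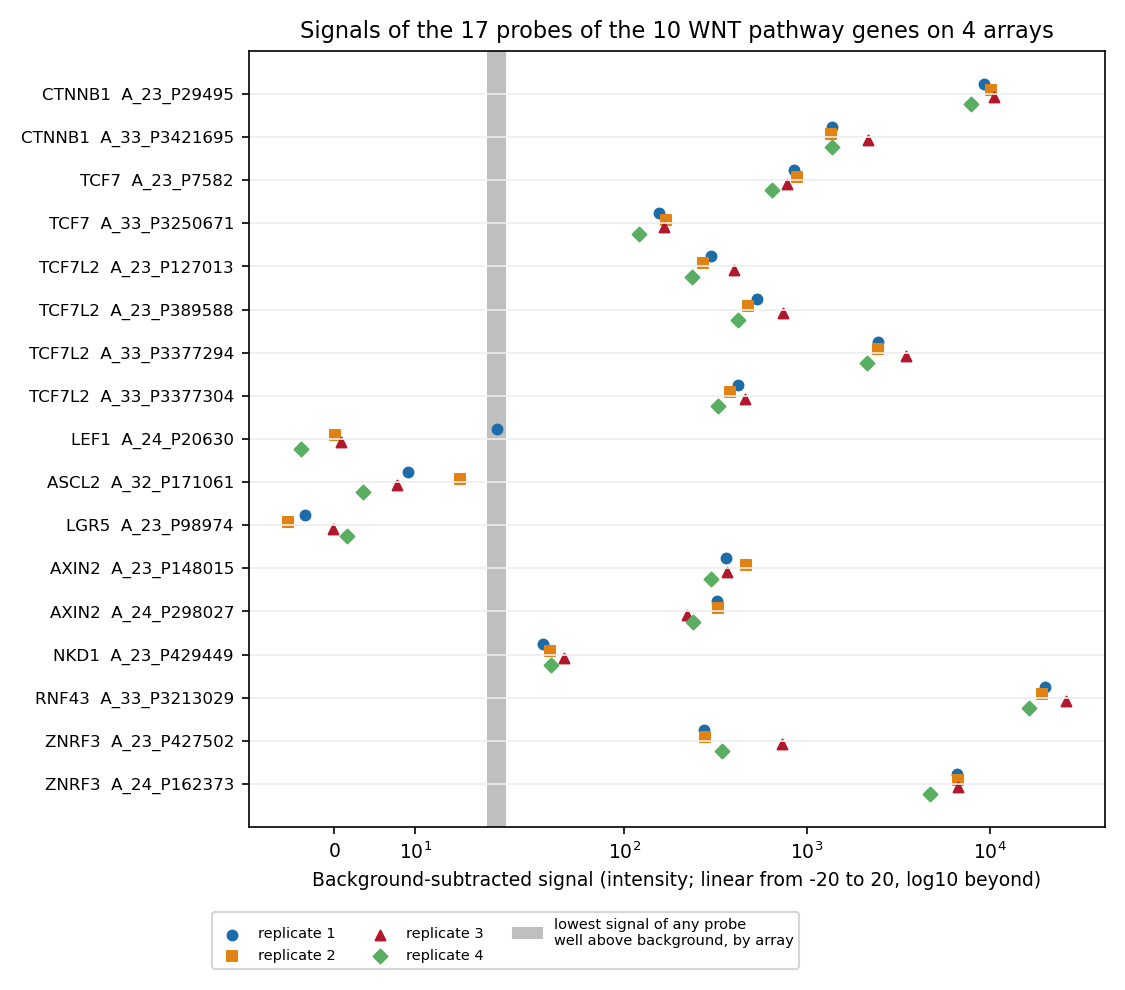
Background-subtracted signal of the 17 probes (horizontal axis, scanner intensity, linear near 0 and logarithmic beyond) on the 4 bafilomycin A1 arrays, with a point per array; the grey band spans the lowest signal that any probe well above background had on each array, 19.0 to 22.3. The probes of LEF1, ASCL2 and LGR5 sit in the band or left of it, and the NKD1 probe lies just to its right.

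CTNNB1, which encodes beta-catenin, was read by 2 probes. Probe A_23_P29495 is printed as 10 spots on each array and had mean background-subtracted signals of 9312, 10118, 10504 and 7897 on replicates 1 to 4. After log2 transformation and subtraction of the array median, these became 6.92, 7.17, 7.22 and 6.96, a mean of 7.07 ± 0.15 (SD, n = 4). Replicates 2 and 3 lay above replicates 1 and 4, by less than 1.4-fold between the highest and the lowest array (1.24-fold). Probe A_33_P3421695, a single spot, had signals of 1373, 1356, 2158 and 1377, or 4.45 ± 0.35 on the normalized log2 scale (SD, n = 4). Here replicate 3 alone stood high, 0.49 above the mean of the probe against 0.16 for the other probe, and the span was 1.73-fold. The signals of different probes depend on their sequences and are not compared as levels.

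The TCF/LEF family divided into detected and undetected members. TCF7, which encodes the factor TCF1, gave 852, 881, 779 and 640 on replicates 1 to 4 with its 10-spot probe A_23_P7582, and 155, 170, 166 and 120 with A_33_P3250671. Replicate 4 was lowest and replicate 2 highest by both probes, and the gene value, the median over probes, was 2.30 ± 0.15 (SD, n = 4), the smallest SD of the 7 detected genes. TCF7L2, which encodes TCF4, the main partner of beta-catenin in the intestinal epithelium, was read by 4 probes spread along chromosome 10. Its gene value was 2.61, 2.60, 3.05 and 2.53 on replicates 1 to 4, a mean of 2.70 ± 0.24 (SD, n = 4). Replicates 1, 2 and 4 lay within 1.05-fold of each other, and replicate 3 lay 1.43-fold above the lowest.

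All 4 TCF7L2 probes deviated in the same direction on each array, above their own mean on replicate 3 and below it on the other arrays. On replicate 3 the deviation was 0.42 for the probe at chr10:114905803-114905862, 0.48 at chr10:114911485-114911544 and 0.43 at chr10:114925978-114926037. The probe nearest to the start of the gene, at chr10:114724321-114724380, deviated by 0.22. The 3 downstream probes thus moved together within 0.08 on every array, while the upstream probe differed from each of them by 0.20 to 0.26 on replicate 3. All 4 probes are single spots. For the 673 detected probes printed as 10 spots, the median SD between spots of an array was 0.18, a size close to this gap. The part of spot error or of probe position in the gap was not tested.

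LEF1, a factor of the same family, was measured by 1 probe, with signals of 20.2, 0.16, 0.89 and -4.07 on replicates 1 to 4. The error the software attached to these signals was 4.16 to 4.76, so that replicate 1 lay apart from the other arrays and those lay within the error of 0. On replicate 1 the spot was flagged as positive and significant but not as well above background. TCF7L1, the remaining member of the family and a gene outside the chosen 10, was detected on all 4 arrays at 3.30 ± 0.21 (SD, n = 4).

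ASCL2 encodes a basic helix-loop-helix factor of intestinal stem cells and is itself a WNT target. Its probe had signals of 9.09, 15.5, 7.79 and 3.6 on replicates 1 to 4, with a software error of 4.23 to 4.86. The spot was positive and significant on 3 arrays, all but replicate 4, and well above background on none. LGR5, an R-spondin receptor that marks crypt stem cells, gave -3.57, -5.73, -0.10 and 1.65, with a software error of 4.16 to 4.47. No LGR5 signal was positive and significant on any array. The lowest signal among all probes well above background was 21.4, 21.5, 19.0 and 22.3 on replicates 1 to 4, above the signal of LEF1, ASCL2 and LGR5 on the same array in every case. Each of these genes was read by 1 probe whose sensitivity was not tested. Signals this low therefore set no bound on the level of these transcripts and do not show that they are absent.

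The feedback inhibitors were all detected. AXIN2, a scaffold of the destruction complex and a widely used readout of WNT signalling, gave 361, 464, 365 and 299 on replicates 1 to 4 with probe A_23_P148015 and 324, 327, 219 and 239 with A_24_P298027. After centring, replicate 2 was highest by both probes. The first probe was lowest on replicates 1 and 4, at 2.23 on each, and the second on replicate 3, at 1.64. The gene value was 2.15, 2.47, 2.01 and 2.07, a mean of 2.18 ± 0.21 (SD, n = 4), with a span of 1.38-fold. AXIN2 was thus the only detected gene of the 10 with its lowest value on replicate 3, under array-median centring. The share of all detected genes lowest on that array is not given here, so this is not read as particular to AXIN2.

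NKD1, which binds Dishevelled and dampens the pathway, had the dimmest detected probe of the 10 genes, with signals of 36.0, 39.3, 46.6 and 39.8 on replicates 1 to 4 and a software error of 5.61 to 6.24. The normalized values of -1.10, -0.84, -0.59 and -0.67 spanned 1.42-fold, with a mean of -0.80 ± 0.22 (SD, n = 4). Replicate 1 was lowest and replicate 3 highest.

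RNF43 and ZNRF3 are paralogous membrane ubiquitin ligases that remove Frizzled receptors from the cell surface, and R-spondins block them through LGR receptors. The single RNF43 probe, at chr17:56431063-56431122, had signals of 19962, 19274, 26068 and 16368 on replicates 1 to 4. On the normalized log2 scale these were 8.02, 8.10, 8.54 and 8.01, a mean of 8.17 ± 0.25 (SD, n = 4). Replicate 3 was high, and the other 3 arrays lay within 1.07-fold of each other. For ZNRF3 the probes diverged. Probe A_24_P162373 had signals of 6606, 6708, 6724 and 4700, or 6.45 ± 0.18 (SD, n = 4) on the normalized log2 scale, whereas probe A_23_P427502 had 274, 277, 732 and 341, or 2.40 ± 0.70. On replicate 3 the second stood 0.98 above its own mean and the first 0.13, a gap of 0.84. The gene value of ZNRF3, 4.43 ± 0.38 (SD, n = 4), had the largest SD of the 7 detected genes. The probe positioned upstream spanned 1.29-fold between arrays and the downstream probe 2.94-fold.

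**Figure D2:**
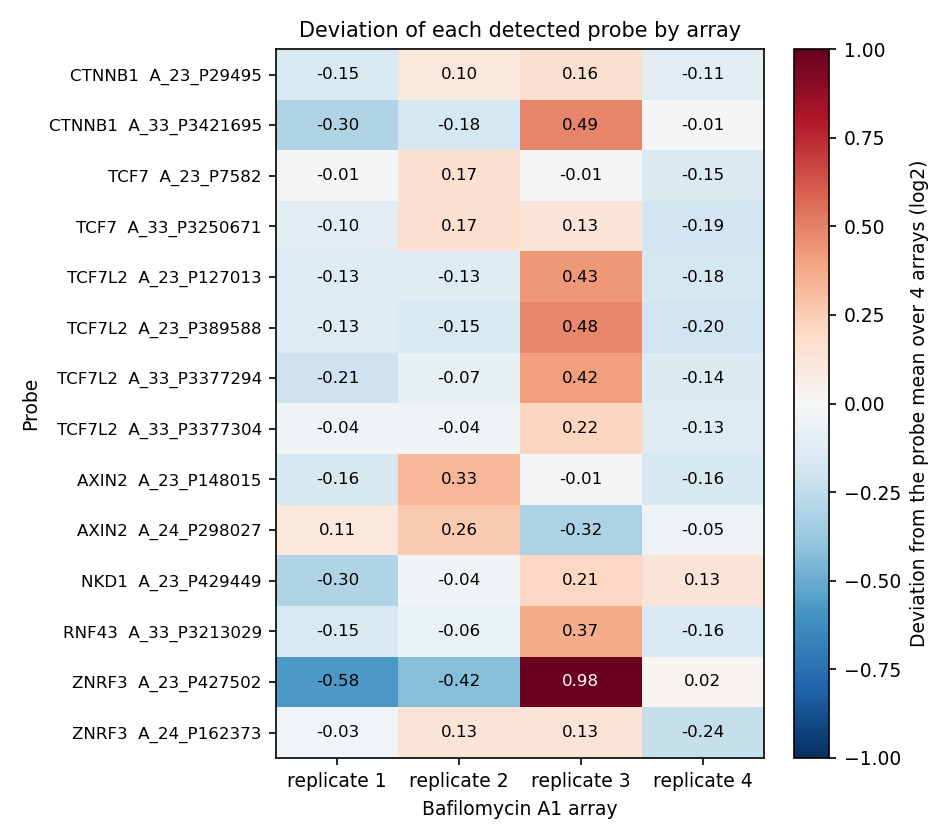
Deviation of each of the 14 detected probes (rows) from its own mean over the 4 arrays (columns), in log2 units, with red above and blue below the mean. Replicate 3 is the highest array for 10 of the 14 probes, the 4 TCF7L2 probes share their pattern, and the ZNRF3 and AXIN2 probes do not. By gene, replicate 3 was highest for 5 of the 7 detected genes and for 48.5% of all detected genes. No such share was computed for all probes.

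Across the 10 pairs of detected probes that read the same gene, from 5 genes, the deviations had the same sign on all 4 arrays in 6, which were the 6 pairs of TCF7L2. The SD over arrays of the log2 difference within a pair ran from 0.03, for a TCF7L2 pair, to 0.68, for ZNRF3. The widest gap fell on replicate 3 in 8 of the 10 pairs. The probes of a pair share the RNA of each culture, so these pairs are not independent observations of it. The 6 TCF7L2 pairs also reuse the same 4 probes. No such count was made for other genes. Over all 24633 detected probes, the median absolute log2 difference between 2 arrays was 0.27 to 0.32 with replicate 3 and 0.14 to 0.17 without it.

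The 10-spot probes gave the error within an array. For CTNNB1 the spots of A_23_P29495 had normalized log2 values of 6.65 to 7.15, 6.96 to 7.36, 7.0 to 7.42 and 6.82 to 7.13 on replicates 1 to 4. Spot ranges therefore overlapped between all arrays, although the means over spots, 6.91 ± 0.06, 7.16 ± 0.05, 7.22 ± 0.05 and 6.96 ± 0.03 (SE over 10 spots), were higher on replicates 2 and 3. The SD was 0.15 within arrays and 0.15 between the array means. For TCF7 the corresponding SDs were 0.15 and 0.13, from 9 spots on replicate 1, where 1 spot was marked as an outlier, and 10 on the others. Over all 673 such probes detected on every array the medians were 0.18 and 0.20. Averaging 10 spots left 9.93% of the variance between arrays to spot error for CTNNB1 and 12.8% for TCF7. Of the 17 probes, 15 were single spots.

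**Figure D3:**
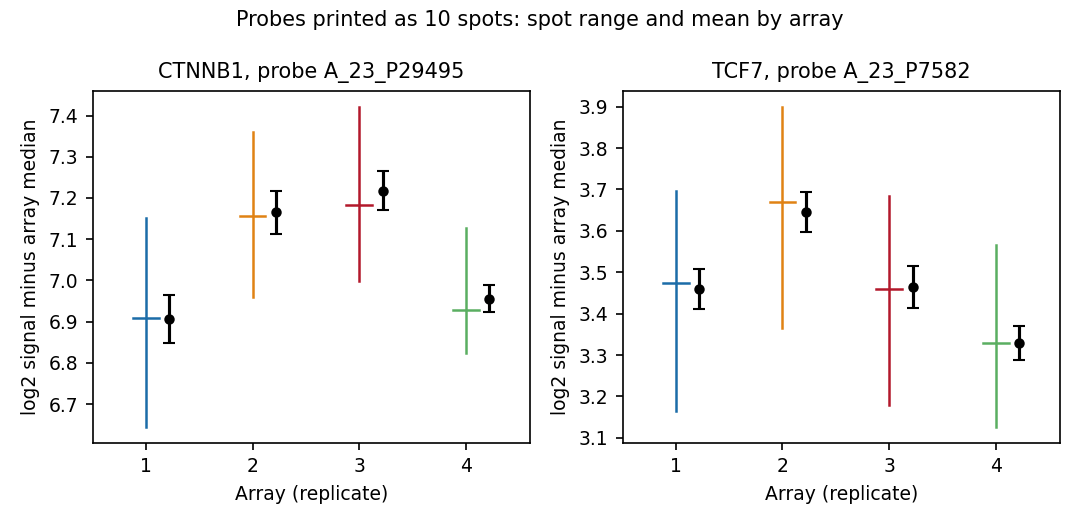
The 10-spot probes of CTNNB1 (left) and TCF7 (right) on each array: vertical lines give the range of the spots, short horizontal bars their median, and black points the mean with its SE, all as log2 signal minus the array median. For CTNNB1 replicates 2 and 3 sit above 1 and 4, and for TCF7 replicate 2 sits highest at 3.65 and replicate 4 lowest at 3.33.

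The spread of these genes between arrays was similar to that of all detected genes. Each culture was read on 1 array, so differences between cultures and between arrays cannot be told apart. The median SD over the 7 detected genes was 0.23, from 0.15 for TCF7 to 0.38 for ZNRF3, against 0.21 over all 19083 detected genes. CTNNB1, TCF7L2, NKD1, RNF43 and ZNRF3, 5 of the 7, spanned more than 1.4-fold between the highest and the lowest array, where 46.4% of all detected genes did. The study's methods set the fold of 1.4 on the change between aneuploid and diploid lines, from medians over replicates. Here it is set on the range over replicate arrays of the same treatment, so the measures differ. The count depended on single arrays and on the normalization: it was 0 without replicate 3 and 3 without replicate 1, 2 when the software's processed signal was centred on its 75th percentile, and 1 after normexp and quantile normalization, where only ZNRF3 remained, at 1.47-fold. The share among all detected genes was 39.1% for the processed signal and 15.5% after quantile normalization. It was not computed with an array left out, where the span of a gene can only stay or shrink. The counts of 0 and 3 are therefore not read as particular to these genes.

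Replicate 3 was the highest array for the same 5 genes, and replicate 2 for TCF7 and AXIN2, except that NKD1 was highest on replicate 4 with the processed signal or with arrays centred on all probes. Of all detected genes, 48.5% were highest on replicate 3 and 25.3% on replicate 2, while replicates 1 and 4 led for 20% and 6.18%. The median deviation of all detected genes on replicate 3 was 0.10 with arrays centred on the median and 0.01 after normexp and quantile normalization. After quantile normalization RNF43 was 7.84 on replicate 3, with the remaining arrays from 7.56 to 7.58, and TCF7L2 was 2.59, with the remaining arrays from 2.24 to 2.34. AXIN2 kept its lowest value on replicate 3, 1.74 against 1.93 to 2.14. Replicate 3 also had the most spots marked as outliers, 2249 against 514 to 725 on the other arrays, of which 0 belonged to the 10 genes, and the part of this in the values was not tested.

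**Figure D4:**
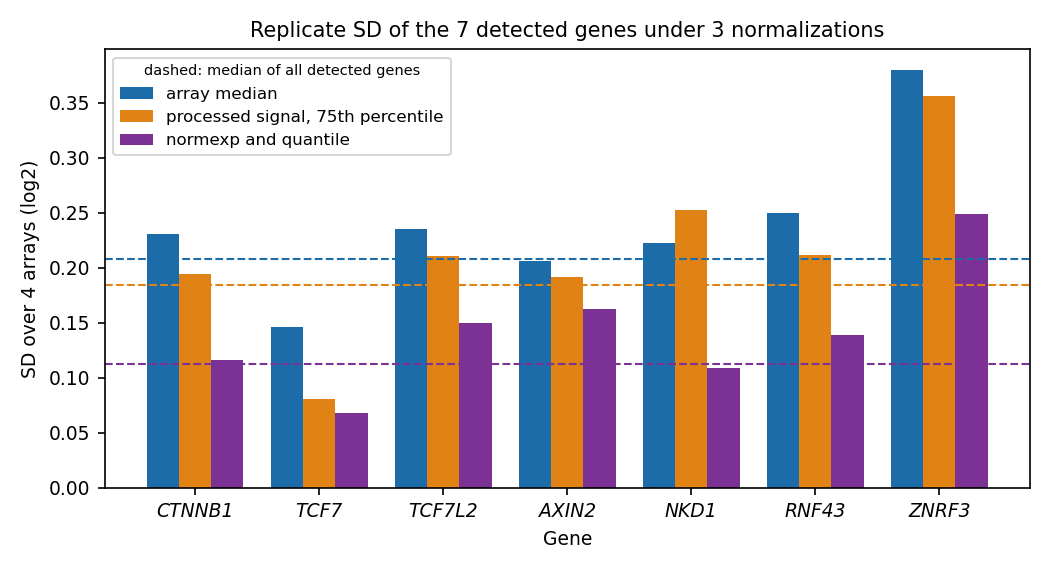
SD over the 4 arrays of the gene value (vertical axis, log2) for the 7 detected genes under 3 normalizations, with dashed lines at the median SD of all detected genes under each. ZNRF3 has the largest SD under all 3 and TCF7 the smallest. Every SD is lower with normexp and quantile normalization together than with array-median centring, and their parts in this were not separated.

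To place the 10 genes within the pathway, 100 other WNT genes were grouped by role, and all 100 were found on the array, AMER1 and CEMIP under older symbols. Of these, 73 were detected on all 4 arrays, 6 on some and 21 on none, beside 70.9% of protein-coding names and 52.5% of all gene names. The counts by role below were not tested against each other or against these shares. The median SD of the detected ones was 0.24 and 40 of 73, or 54.8%, spanned more than 1.4-fold, beside 0.21 and 46.4% for all detected genes, where the latter share was 39.1% and 15.5% under the other normalizations given above.

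All 14 genes of the destruction complex and Dishevelled group were detected. Among them were APC, the scaffold most often mutated in colon cancer, its paralogue APC2 at 4.21 ± 0.16 and AXIN1, the constitutive relative of AXIN2, at 3.05 ± 0.27 (SD, n = 4). AXIN1 was lowest on replicate 3, at 2.76 against 2.99 to 3.40 on the other arrays. Genes of other roles, such as BCL9 and CCND1, were also lowest there. For APC only 1 of 2 probes was detected, and the gene value was -1.09 ± 0.23 (SD, n = 4) over both and 1.22 ± 0.33 for the detected probe. Of the 14 nuclear partners and corepressors, 13 were detected. The beta-catenin adaptors BCL9 and BCL9L gave 1.84 ± 0.26 and 2.78 ± 0.13 (SD, n = 4), and PYGO1, which binds BCL9, was well above background on no array.

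Of 18 receptors, 16 were detected. The Frizzled receptors FZD1, FZD2 and FZD3 gave 2.57 ± 0.40, 4.79 ± 0.19 and 1.26 ± 0.25 (SD, n = 4), each with its highest value on replicate 3. FZD8 and FZD10 were well above background on no array. LGR6, a paralogue of LGR5, had a gene value of -0.56 ± 0.92 from its 2 probes together, and its only detected probe gave 1.99 ± 0.08 (SD, n = 4).

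Of 23 ligands, 12 were detected, and of 14 secreted or surface inhibitors, 5. WNT3 and WNT3A gave 3.11 ± 0.16 and 2.54 ± 0.05 (SD, n = 4), WNT3A having the smallest SD of the 73 detected genes. WNT1 gave -1.58 ± 0.72 (SD, n = 4), or -0.44 ± 0.35 for its detected probe. No array detected WNT2, WNT5A or WNT5B. Of the genes that modify ligands, the acyltransferase PORCN gave 5.34 ± 0.11 and the ligand carrier WLS 2.55 ± 0.15 (SD, n = 4), while the secreted ligand-inactivating enzyme NOTUM was well above background on no array. DKK1, which blocks LRP co-receptors and is itself a target, gave 7.26, 7.39, 7.61 and 7.24 on replicates 1 to 4, a mean of 7.38 ± 0.17. DKK4 gave -1.02 ± 0.42 and FRZB -0.29 ± 0.16 (SD, n = 4), whereas no array detected DKK2, SFRP1 or SFRP2.

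Of 14 further target genes, 11 were detected. MYC, the growth-promoting transcription factor, gave 8.79 ± 0.28 with its detected probe and 3.22 ± 0.37 over both probes. CCND1, which encodes cyclin D1, gave 5.99, 6.31, 5.16 and 5.88 on replicates 1 to 4, a span of 2.23-fold with replicate 3 lowest. CD44, a surface receptor for hyaluronan, gave 5.94 ± 0.20 and was highest on replicate 3. NKD2, the paralogue of NKD1, gave 1.98 ± 0.05 (SD, n = 4). TNFRSF19 had the largest SD of the 73, 2.46, from values of -0.85, -0.70, -1.0 and -5.76, while its detected probe gave -0.94 ± 0.22 (SD, n = 4). No array detected PROX1 or OLFM4, the latter a marker of human intestinal stem cells like LGR5 and ASCL2.

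**Figure D5:**
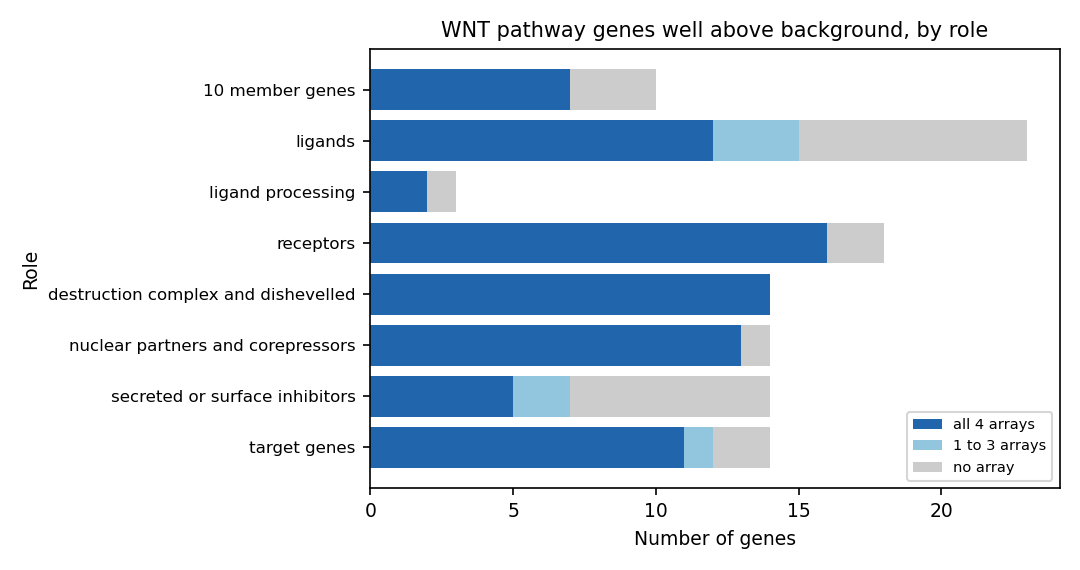
Number of WNT pathway genes (horizontal axis) by role, split by whether a probe was well above background on all 4 arrays, on 1 to 3 or on none. The destruction complex is complete at 14 of 14, and ligands and secreted inhibitors hold the most undetected genes, 8 and 7.

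Marker genes of several cell types were read on the same arrays. All 7 epithelial markers were detected on all 4 arrays, but of 7 markers of colon epithelium only CDX1, CDX2 and LGALS4 were; no array detected CDH17, VIL1 or GPA33. Of markers of other cell types, 1 of 7 for fibroblasts (COL1A1), 4 of 5 for leukocytes (PTPRC, CD3E, CD68 and CD79A) and 2 of 4 for endothelium (VWF and CDH5) were detected. By the same rule 52.5% of all gene names and 70.9% of protein-coding names were detected. The marker counts were not tested against these shares, and detection alone does not tell the cell types apart here. The summed signal of each list ranged over the arrays from 442462 to 540571 for epithelium, 1330 to 1647 for colon epithelium, 403 to 664 for fibroblasts, 3605 to 5100 for leukocytes and 164 to 265 for endothelium. These sums come from different probes and lists of different length, so they describe each list across arrays and are not compared between lists. The part of these sums in the values above was not tested. The share of spots well above background ran from 55.6% to 60.4% over the arrays, and 0 spots were saturated.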

How the data were processed

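Each array came as a scanner file that the authors deposited as written by Agilent Feature Extraction 10.7.3.1. Its intensity values were deposited after the software had subtracted the background, on a linear scale, with no scaling from array to array. Spots that were controls or carried an outlier mark were dropped, and repeated spots were combined as their mean. As in the study's methods, values were then converted to log2, each array was centred on its median (over probes with positive signal), and probes were combined per gene by their median. A signal of 0 or less has no log2 value. Detection of a probe on an array required that over 50% of its spots be marked well above background, and detection of a gene that any of its probes pass on all 4 arrays. With 1 condition there was no comparison of groups and no p-value. The number of arrays limits the precision.

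Other settings were the software's processed signal (75th percentile), normexp (offset 50) with quantile normalization in limma 3.58.1, centring on all probes, other choices of probes and of detection rule, outlying spots retained, and each array omitted. Pathway genes are named by their order in each list (up to 3 detected and 3 not detected), plus the 2 detected genes with the largest and the 2 with the smallest SD. The members and lists were chosen with earlier results of these data known. The calculations were tested on simulated data. Python 3.11.15, numpy 2.4.6, pandas 2.3.3 and R 4.3.3 were used.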

Additional observations from a re-analysis of the deposited data

Results flagged for a closer look

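Of 42 values examined, 30 genes and 12 probes, 6 had 1 array far from the other 3 relative to their range, which chance gives in about 5% of groups. Of all 19083 detected genes 8.48% did, 5.37% with replicate 3 as the array apart. The 42 values include genes named for a large SD, among them TNFRSF19, and probes that enter a gene value also examined, so their count is not read against these shares. TCF7L2 was 3.05 on replicate 3, the other arrays ranging from 2.53 to 2.61. Among its probes, A_23_P127013 was 2.51 on replicate 3 (other arrays 1.89 to 1.95) and A_23_P389588 was 3.39 (other arrays 2.71 to 2.78). FZD3 was 1.64 on replicate 3, against 1.13 to 1.15 elsewhere. WNT1 was -0.50 on replicate 1, against -2.05 to -1.87 elsewhere, and TNFRSF19 was -5.76 on replicate 4, against -1.0 to -0.70 elsewhere. Both of the latter have 1 detected probe of 2. For TNFRSF19 the undetected probe entered the gene value on replicate 4 alone, where the detected probe was -1.21.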

How the results depend on the processing

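The number of detected genes of the 10 was 7 under every detection rule and with any array left out. For the 100 other WNT pathway genes it was 73, and between 60 and 81 under other detection rules. Of the 7 detected genes, 5 spanned more than 1.4-fold, a count that fell to 2 with the processed signal, to 1 with quantile normalization following normexp, and lay between 0 and 5 with 1 array left out. Leaving out an array cannot widen a span, and the share of all genes was not computed for that setting. The median SD of these genes was 0.23, or 0.14 after normexp and quantile normalization, and from 0.10 to 0.28 with 1 array left out. For the other pathway genes it was 0.24, or 0.13 after that normalization, and from 0.15 to 0.25 with 1 array left out. Replicate 3 was the array whose removal gave the lowest values. The number of genes highest on replicate 3 was 4 or 5 of the 7 under all normalizations, a count chosen after seeing the data. Of all detected genes, between 37.5% and 52.5% were highest on replicate 3 under these settings. Means of the genes moved by more than 1 SD in all 21 cases under the 3 settings that change the scale or its zero point; leaving out 1 of 4 arrays cannot move a mean that far, and the choices of probes left these genes as they were. No paired analysis was possible because only 1 group was analysed. Single-spot probes and signals near background limit what is said of LEF1, ASCL2, LGR5 and NKD1.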
